A study of Mus musculus with 12 samples.

Results

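The ATP-binding cassette (ABC) transporter genes *Abcb1a*, *Abcb1b*, *Abcg2*, *Abcc1*, *Abcc5*, *Abcc6*, *Abca1* and *Abcg1* were followed across 4 groups of mouse livers. They were taken by symbol from a deposited table of 25676 genes, all 8 were found once, and they were chosen as multidrug and lipid efflux pumps other than the classical exporters of bile. RNA from whole liver was sequenced in 12 C57BL/6 mice aged 3-4 months, 1 library per mouse. The groups were 3 male and 3 female knockout mice (KO), whose labels give a *Yap1* knockout made with Foxa3-Cre, and 3 male and 3 female mice labelled WT. *Foxa3* is active in the endoderm that forms the liver, so its promoter directs Cre to hepatocyte and bile duct lineages and not to macrophages, endothelium or stellate cells. The labels do not say whether WT mice carried Cre or a floxed allele. They give each sample its own number but do not state that litters differed, so p-values measure the spread between these samples.

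ABC transporters use ATP to move substrates across membranes. P-glycoprotein, encoded in rodents by the tandem genes *Abcb1a* and *Abcb1b*, and the half-transporter encoded by *Abcg2* expel hydrophobic drugs and toxins, and in hepatocytes both are also known on the canalicular membrane, so the 3 genes are not strictly outside bile. The multidrug resistance-associated proteins of *Abcc1*, *Abcc5* and *Abcc6* handle organic anions, cyclic nucleotides and the ATP release that feeds plasma pyrophosphate. *Abca1* and *Abcg1* encode cholesterol exporters that load high-density lipoprotein (HDL), *Abca1* in hepatocytes and macrophages and *Abcg1* largely in macrophages and endothelium. The data are RNA levels and do not show on which membrane a pump sits.

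Levels are given in TPM, the share of a library's transcripts scaled to a sum of 1000000, which are corrected for gene length and can be compared between genes. Differences are on the log2(TPM + 1) scale, KO minus WT unless stated, from limma with Benjamini-Hochberg adjustment over the 12278 genes with a mean of at least 0.5 TPM, and called at an adjusted p under 0.05. All 8 genes passed this filter, *Abcb1b* with the smallest margin at a mean of 0.591 TPM. *Abcc1* passed only through its KO livers and *Abcb1b* only through its WT livers, the other genotype having a mean below 0.5 TPM. TPM are shares of a library, and the median gene was 0.35 higher in KO as deposited. Each comparison was therefore also made after median-of-ratios rescaling, which divides each library by its typical ratio to the average library and left the median gene at -0.04. Rescaling without the 20 most abundant genes left it at 0.29.

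The targeted gene followed the labels. *Yap1* was at 29.5 ± 4.46 TPM in WT and 2.02 ± 0.775 in KO (SD, n = 6 each), a difference of -3.36 (exact two-sided permutation within sex, p = 0.005, the smallest that 400 arrangements allow). The remaining *Yap1* level was 0.994 to 1.80 TPM in KO males and 2.41 to 3.11 in KO females, which did not overlap. Neither this sex difference (-0.62, adjusted p = 0.692, limma) nor the interaction (-0.86, adjusted p = 0.221, or -1.05, adjusted p = 0.0682 rescaled) was called, and the part of unequal remaining *Yap1* in the comparisons between sexes was not tested. Between 19644571 and 27816182 reads per library could be recovered from the steps of the TPM values, and 14321 to 15482 genes were above 0, the fewest in WT male replicate 2. The header of that library carries a number well apart from those of the other libraries, and what this reflects is not stated. Hepatocyte markers had the largest of the marker sums in every library, with 7 of them summing to 79900 to 107000 TPM in WT and 60300 to 85700 in KO. After rescaling these sums did not overlap (94400 to 115000 against 52300 to 76500), and 0 of the 7 were called higher and 3 lower, against 1 and 2 as deposited. As background for the marker counts, 50.1% of all tested genes were called higher in KO and 4.82% lower as deposited, and 20.9% and 18.7% after rescaling. All 10 macrophage markers were called higher in KO on both scales, and their sum went from 92.2 to 312 TPM in WT to 563 to 1160 in KO. Of 8 stellate cell markers 5 were higher and 0 lower as deposited, near the background, and 3 and 1 after rescaling, with sums that overlapped (63.0 to 171 against 153 to 380 TPM). Of 6 tested cholangiocyte markers 4 were higher and *Epcam* was lower on both scales, and the sum, mostly *Spp1*, went from 28.1 to 62.4 to 281 to 741 TPM. The bile duct keratin *Krt19* was at 1.38 TPM in WT and 1.24 in KO. Of 4 tested neutrophil markers 3 were higher, or 1 after rescaling (sum 0.294 to 21.2 TPM against 12.4 to 46.1). Endothelial markers were called in 1 of 7 in each direction, or 0 higher and 2 lower after rescaling (44.9 to 69.7 TPM against 28.5 to 112). None of 4 tested lymphocyte markers (2.28 to 7.75 against 2.22 to 7.85 TPM) and 5 tested erythroid markers (788 to 2160 against 564 to 3400 TPM) was called on either scale. None of these markers was at 0 in all samples of a genotype. In whole liver, fewer cells of a type and less RNA per cell cannot be told apart, and the part of these shifts in the results below was not tested.

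The P-glycoprotein genes lie side by side on chromosome 5 in GRCm38, *Abcb1a* at chr5:8660077-8748575 and *Abcb1b* at chr5:8798147-8866315, both on the plus strand (GENCODE M21). Since reads from such copies can be assigned to either, their shared sequence is shown first. Their coding sequences were identical at 87.7% of 3837 aligned columns. The longest identical run was 338 bases, and 60 bases of it follow, with the codons of the conserved signature motif of ABC transporters in capitals (coding bases 1555 to 1614 of *Abcb1a* and 1564 to 1623 of *Abcb1b*).
*Abcb1a* and *Abcb1b*, shared: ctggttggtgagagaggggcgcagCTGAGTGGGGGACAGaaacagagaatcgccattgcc
The least alike stretch of the same length, where 35 of 60 bases were identical, follows with differing bases in capitals (coding bases 1913 to 1972 and 1922 to 1981).
*Abcb1a*: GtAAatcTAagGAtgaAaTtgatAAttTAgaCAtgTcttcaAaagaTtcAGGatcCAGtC
*Abcb1b*: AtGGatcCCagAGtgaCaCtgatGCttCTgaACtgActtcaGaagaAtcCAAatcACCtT
Of all 50-base windows of the *Abcb1a* transcript, 15.5% also occur in *Abcb1b*, and of 100-base windows 7.49%. From the *Abcb1b* side these shares are 18.0% and 8.72%. Most of the sequence thus tells the copies apart, although how the authors placed reads that fit both is not given in the sources used here. In KO livers *Abcb1a* had 313 to 745 reads and *Abcb1b* 10 to 33. Even few misplaced *Abcb1a* reads could alter the *Abcb1b* values, which was not tested.

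*Abcb1a* had the largest log2 difference between genotypes of the 8 genes over both sexes and in males. As deposited this also held in females by a narrow margin (1.35, against 1.33 for *Abcg1*), but not after rescaling (1.03 against 1.05). In females the ratio of KO to WT means was larger for *Abcg1* (3.47), *Abcc1* (2.96) and *Abcc5* (2.92) than for *Abcb1a* (2.84). Males labelled WT had 0.894, 0.245 and 0.827 TPM and WT females 4.11, 5.81 and 3.92. Male KO livers had 7.49, 6.71 and 12.7 TPM and KO females 13, 13 and 13.4. Every KO liver was above every WT liver, and within each genotype every female was above every male. Mean levels were 4.19 times as high in KO as in WT. The log2 difference was 1.96 (SE 0.232, adjusted p = 1.34e-05, limma). After rescaling it was 1.63 (adjusted p = 7.07e-05), and the genotypes then overlapped, since the highest WT female reached 6.13 TPM and the lowest KO male 5.82. The WT male values rest on 15 to 54 reads.

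*Abcb1b*, whose protein has overlapping substrates, did not follow its neighbour. It had 0.646, 1.70 and 0.848 TPM in WT males and 0.0644, 0.501 and 0.362 in WT females. The KO males had 0.778, 0.237 and 0.534 TPM and the KO females 0.308, 0.437 and 0.685. The genotypes overlapped throughout, and the values rest on 3 to 94 reads. Without WT male replicate 2, its highest liver, *Abcb1b* fell below the filter. The difference was -0.12 (95% interval -0.49 to 0.25, adjusted p = 0.56, limma). Summed over both copies, P-glycoprotein RNA was at 1.72 ± 0.204 TPM in WT males, 4.93 ± 1.20 in WT females, 9.48 ± 3.31 in KO males and 13.6 ± 0.413 in KO females (SD, n = 3 each). The share of *Abcb1b* in the pair moves with *Abcb1a* by construction, so it is no separate result, and it was not tested. *Abcb1b* supplied 60.0% ± 24.1 of the pair's TPM in WT males, from 42.0% to 87.4% by animal with the highest share in replicate 2, but 5.98% ± 3.85 in WT females, 5.62% ± 3.29 in KO males and 3.48% ± 1.29 in KO females.

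**Figure D1:**
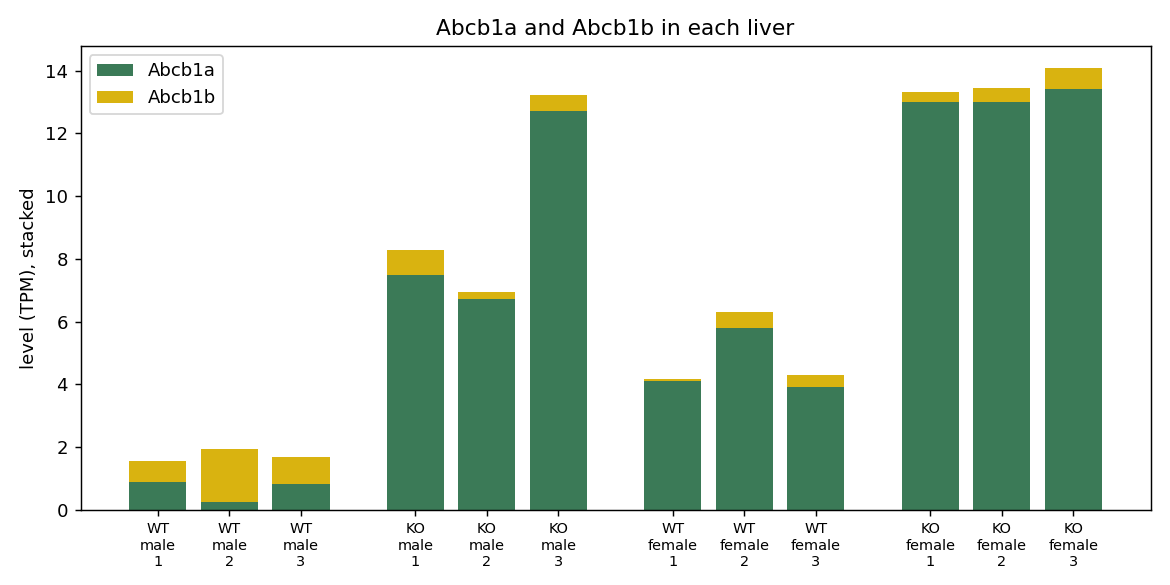
Stacked bars of the TPM of *Abcb1a* (lower part) and *Abcb1b* (upper part), 1 bar for each of the 12 livers, by group and replicate. *Abcb1a* is at 0.245 to 0.894 TPM in the 3 WT males and 13 to 13.4 TPM in the 3 KO females, while *Abcb1b* reaches at most 1.70 TPM.

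The 250 bases before a RefSeq transcription start (GRCm38.p6) were available for *Abcb1a*, *Abcb1b*, *Abcc5*, *Abca1* and *Abcg2*, the last with 3 starts, giving 7 windows. *Abcb1a* and *Abcc5* are shown because both were higher in KO, and *Abcb1b* as the neighbour that was not. Capitals mark GGAATG, the core bound by TEAD factors, the DNA-binding partners of YAP1, or GGGCGG, the GC box bound by Sp factors, on either strand.
*Abcb1a*, chr5:8566841-8567090, plus strand: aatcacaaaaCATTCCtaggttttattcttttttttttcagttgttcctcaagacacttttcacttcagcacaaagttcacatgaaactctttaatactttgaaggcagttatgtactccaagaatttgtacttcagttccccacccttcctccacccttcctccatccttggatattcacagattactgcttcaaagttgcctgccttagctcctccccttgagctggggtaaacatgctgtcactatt
*Abcb1b*, chr5:8797897-8798146, plus strand: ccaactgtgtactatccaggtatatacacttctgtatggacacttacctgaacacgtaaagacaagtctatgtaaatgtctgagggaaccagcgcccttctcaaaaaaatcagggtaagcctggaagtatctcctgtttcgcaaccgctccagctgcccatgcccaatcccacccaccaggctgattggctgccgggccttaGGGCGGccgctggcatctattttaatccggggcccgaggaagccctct
*Abcc5*, chr16:20426395-20426644, minus strand: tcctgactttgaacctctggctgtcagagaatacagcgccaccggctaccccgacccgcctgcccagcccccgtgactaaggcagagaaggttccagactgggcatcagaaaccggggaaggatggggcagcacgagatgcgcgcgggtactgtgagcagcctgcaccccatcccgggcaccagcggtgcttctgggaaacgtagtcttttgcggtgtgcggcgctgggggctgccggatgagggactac
The *Abcb1a* start used by RefSeq lies 92986 bases before the start of the GENCODE gene, and its window is the poorest in G and C of the 3 (40.4%, against 52.8% and 64.0%). GGAATG occurred in 1 of the 7 windows, at -240 of *Abcb1a* on the minus strand, and in 12.6% of all 32851 windows of that length. GGGCGG occurred in 4 of the 7 (*Abca1*, *Abcb1b* and 2 starts of *Abcg2*) and in 32.7% of all. The E-box CACGTG occurred once, at -147 of *Abca1* (6.02% of all). The antioxidant response core TGACNNNGC (10.2% of all), the xenobiotic response core GCGTG bound by the aryl hydrocarbon receptor (28.2%) and the liver X receptor repeat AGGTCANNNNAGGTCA (0.0152%) were in none of the 7. The exact liver X receptor repeat is so rare that its absence from 7 windows was near certain, and looser forms of it were not searched. These matches describe letters in a window and show no binding.

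*Abcg2*, which encodes the breast cancer resistance protein (chr6:58584523-58695676, plus strand), was higher in males than in females among the WT livers. Its levels were 29.3, 29.0 and 23.6 TPM in WT males and 7.90, 10.9 and 9.37 in WT females. In KO they were 20.5, 19.1 and 25.8 TPM in males and 17.1, 17.0 and 13.6 in females. The KO livers thus lay between the WT sexes apart from 1 KO male inside the WT male range. Over both sexes the KO difference was 0.19 (95% interval -0.20 to 0.58, adjusted p = 0.386, limma). In females alone it was 0.70 (adjusted p = 0.00667), with no overlap between genotypes, as in 51.3% of tested genes. In males it was -0.32 (adjusted p = 0.138). Rescaling moved both sexes down, to 0.38 in females (adjusted p = 0.114) and -0.88 in males (adjusted p = 0.00204), so which sex passes the threshold depends on the scale.

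Of the multidrug resistance-associated proteins, *Abcc1* and *Abcc5* rose and *Abcc6* did not. *Abcc1* encodes an exporter of glutathione conjugates and leukotriene C4 that sits on the blood side of cells (chr16:14361558-14475737, plus strand). It had 0.263, 0.376 and 0.320 TPM in WT males and 0.448, 0.599 and 0.359 in WT females. The KO values were 1.49, 0.850 and 1.62 TPM in males and 1.76, 1.36 and 1.04 in females. Every KO liver was above every WT liver, at a low level that rests on 20 to 140 reads. *Abcc1* passed the filter only through the KO livers. The mean was 3.43 times as high in KO, and the difference was 0.75 (SE 0.120, adjusted p = 0.000182, limma), or 0.55 after rescaling (adjusted p = 0.00138).

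*Abcc5* encodes an exporter of cyclic nucleotides and other organic anions (chr16:20331303-20426394, minus strand). WT males had 0.636, 0.480 and 0.819 TPM and WT females 1.49, 1.10 and 1.43. The KO males had 3.54, 2.36 and 4.14 TPM and the KO females 5.06, 3.01 and 3.67. All 6 KO livers were above all 6 WT livers. Mean levels were 3.66 times as high in KO, with a difference of 1.22 (SE 0.145, adjusted p = 1.36e-05, limma), or 0.93 after rescaling (adjusted p = 5.98e-05).

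*Abcc6*, the liver transporter whose loss causes the calcification disease pseudoxanthoma elasticum, was the most abundant of the 8 (chr7:45967555-46030302, minus strand). It had 70.7, 54.9 and 70.0 TPM in WT males and 67.7, 76.9 and 87.9 in WT females. The KO males had 54.3, 65.9 and 60.9 TPM and the KO females 48.5, 68.8 and 63.8. The genotypes overlapped, and the difference was -0.23 (95% interval -0.49 to 0.03, adjusted p = 0.115, limma). After rescaling every KO liver was below every WT liver (37.8 to 61.4 against 72.9 to 95.9), with a difference of -0.69 (adjusted p = 0.000608), again beside the lower rescaled hepatocyte marker sums. As deposited, leaving out WT male replicate 2, the lowest WT value, also brought it past the threshold, at -0.30 (adjusted p = 0.0416).

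The cholesterol exporters differed from each other. *Abcg1*, which passes cholesterol to HDL particles, had 1.17, 1.48 and 1.53 TPM in WT males and 2.18, 1.39 and 1.34 in WT females (chr17:31057675-31117988, plus strand). Its KO values were 4.20, 3.16 and 6.71 TPM in males and 7.68, 4.73 and 4.65 in females, all above the WT livers. The mean was 3.42 times as high in KO, with a difference of 1.27 (SE 0.167, adjusted p = 3.33e-05, limma), or 0.93 after rescaling (adjusted p = 0.000255). Like those of *Abcb1a*, *Abcc1* and *Abcc5*, its rise stood beside the higher macrophage sum given above, whose part was not tested.

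*Abca1*, which lipidates apolipoprotein A-I in the first step of HDL formation, had 32.7, 36.9 and 34.3 TPM in WT males and 20.9, 26.6 and 25 in WT females (chr4:53030787-53159895, minus strand). The KO males had 26.7, 29.0 and 54.1 TPM and the KO females 31.8, 25.4 and 22.6. The genotypes overlapped, with KO male replicate 3 the highest liver, and the difference was 0.07 (95% interval -0.28 to 0.41, adjusted p = 0.741, limma). After rescaling, which moved the median gene from 0.35 to -0.04, it was -0.39 (adjusted p = 0.0438), and this stood beside the lower hepatocyte marker sums on that scale, whose part was not tested. That call was in turn lost in 8 of the 12 rescaled fits that left out 1 library.

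**Figure D2:**
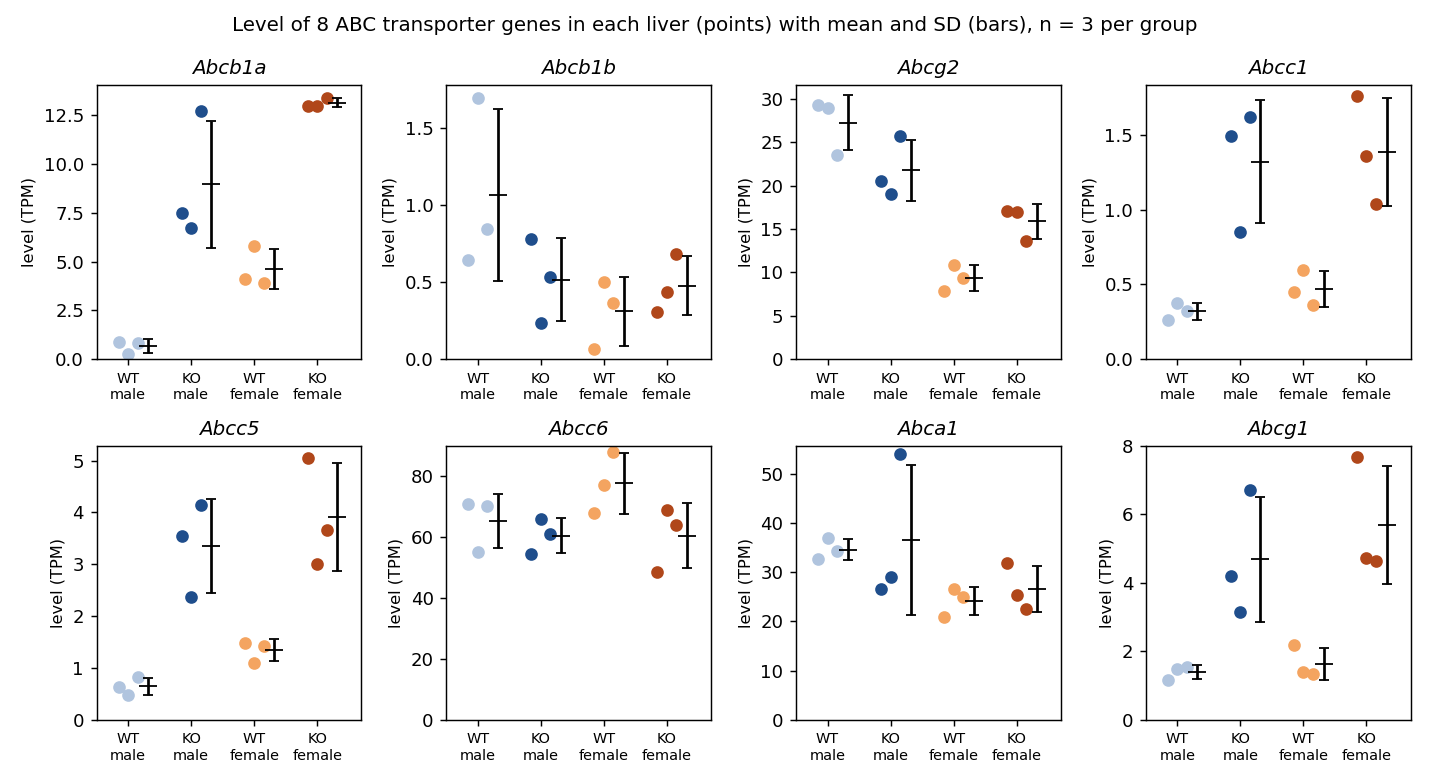
TPM of the 8 transporter genes in each liver by group, with points for animals and, beside them, the group mean with its SD (n = 3 each). *Abcb1a*, *Abcc1*, *Abcc5* and *Abcg1* are higher in all 6 KO livers than in all 6 WT livers, and the other 4 genes overlap between genotypes.

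By level the order in WT was *Abcc6* (71.4 ± 10.9 TPM), *Abca1* (29.4 ± 6.18), *Abcg2* (18.4 ± 10.1), *Abcb1a* (2.64 ± 2.28), *Abcg1* (1.52 ± 0.350), *Abcc5* (0.992 ± 0.417), *Abcb1b* (0.686 ± 0.561) and *Abcc1* (0.394 ± 0.117; SD, n = 6 each). Neighbours in this order overlapped between animals, except *Abcc6* with *Abca1* and *Abcg2* with *Abcb1a*. In KO it was *Abcc6* (60.4 ± 7.64 TPM), *Abca1* (31.6 ± 11.5), *Abcg2* (18.8 ± 4.14), *Abcb1a* (11 ± 3.07), *Abcg1* (5.19 ± 1.68), *Abcc5* (3.63 ± 0.930), *Abcc1* (1.35 ± 0.348) and *Abcb1b* (0.496 ± 0.211). There *Abcg2* and *Abcb1a*, *Abcc5* and *Abcc1*, and *Abcc1* and *Abcb1b* did not overlap, and the other neighbours did. The genes that rose were thus among the 5 scarcer ones, and the 8 together came to 125 ± 11.1 TPM in WT and 133 ± 17.4 in KO. *Abcc6* and *Abca1* made up 80.5% ± 5.37 of that sum in WT and 69.4% ± 3.40 in KO.

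Counted together, 4 of the 8 were called higher in KO and 0 lower, where 50.1% of all tested genes were called higher and 4.82% lower. The 8 genes' median difference was 0.47, beside 0.35 over all genes. After rescaling the same 4 stayed higher and *Abcc6* and *Abca1* were lower, where 20.9% and 18.7% of genes were called, and the medians were 0.15 and -0.04. Every KO liver was above every WT liver in 4 of the 8 as deposited and in 28.7% of tested genes. The genotypes did not overlap in 4 of the 8 after rescaling (*Abcc1*, *Abcc5* and *Abcg1* higher, *Abcc6* lower) and in 19.0% of tested genes. The share of 4 in 8 called higher is near the background as deposited.

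The authors' deposited table carries its own KO to WT comparison. In the authors' deposited table the log2 fold changes were 2.94 for *Abcb1a*, 1.82 for *Abcc5*, 1.48 for *Abcc1* and 1.44 for *Abcg1*, all with an FDR listed as 0. The authors' deposited table also lists *Abcb1b* at -1.49 (FDR 0.03), *Abcg2* at -0.78 (FDR 0.02), *Abcc6* at -0.76 (FDR 0) and *Abca1* at -0.56 (FDR 0.11). The log2(TPM + 1) differences are another measure, in which the added 1 shrinks changes of genes near or below 1 TPM. The *Abcb1b* mean in KO was 0.723 times that in WT. For *Abcb1b* the limma values were -0.12 as deposited (adjusted p = 0.56) and -0.30 rescaled (adjusted p = 0.247), neither called. For *Abcg2* they were 0.19 as deposited and -0.25 rescaled, neither called, and for *Abca1* 0.07, not called, and -0.39.

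Within males, 4 of the 8 genes were higher in KO and 0 lower, where 43.3% and 2.81% of tested genes were. After rescaling 4 were higher and 2 lower in males, where 13.9% and 10.2% of genes were, the lower ones being *Abcg2* (-0.88) and *Abcc6* (-0.67, adjusted p = 0.0163, limma). The differences called in males as deposited were 2.57 for *Abcb1a*, 1.39 for *Abcc5*, 1.20 for *Abcg1* and 0.80 for *Abcc1* (adjusted p from 4.55e-06 to 0.00313, limma). In females 5 were higher and 0 lower, where 29.1% and 4.68% of tested genes were. After rescaling 4 were higher and 1 lower in females, where 15.2% and 10.9% of genes were, since *Abcg2* was no longer called and *Abcc6* was lower (-0.71, adjusted p = 0.0115). The differences called in females as deposited were 1.35 for *Abcb1a*, 1.33 for *Abcg1*, 1.05 for *Abcc5*, 0.70 for *Abcg2* and 0.69 for *Abcc1* (adjusted p from 0.000826 to 0.00887). For *Abcb1a* the mean was 13.7 times as high in KO males as in WT males and 2.84 times as high in KO females as in WT females.

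**Figure D3:**
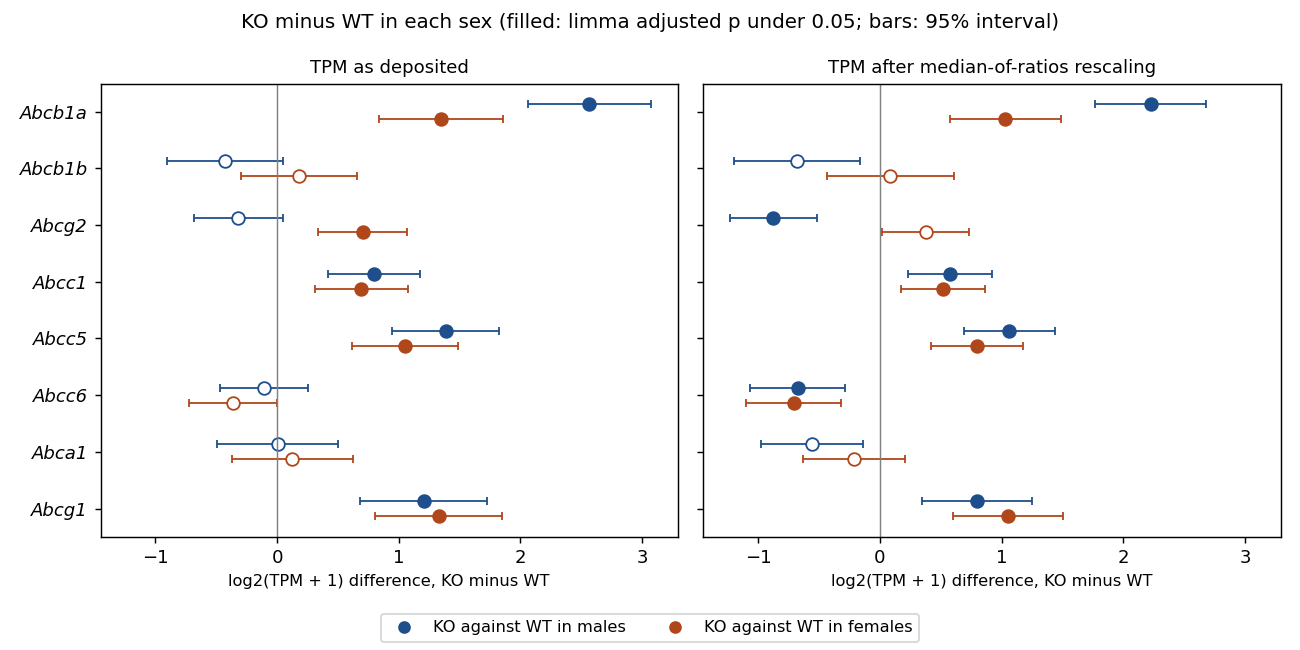
Difference of log2(TPM + 1), KO minus WT, in males and females, with 95% intervals, as deposited (left) and after rescaling (right), with filled points for an adjusted p under 0.05. *Abcb1a* differs by 2.57 in males and 1.35 in females as deposited, and *Abcg2* by -0.32 and 0.70.

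Whether the genotype difference itself differed between the sexes was tested as an interaction, male minus female. As deposited 0 of the 8 passed (0.912% of tested genes did), with 2 at an unadjusted p under 0.05. These were *Abcb1a* at 1.22 (SE 0.332, adjusted p = 0.19, limma) and *Abcg2* at -1.02 (SE 0.240, adjusted p = 0.0901). After rescaling *Abcg2* passed, at -1.25 (95% interval -1.76 to -0.75, adjusted p = 0.023), as did 0.839% of tested genes, but in 7 of 12 rescaled fits with 1 library left out it did not. The sexes' different *Abcb1a* ratios are therefore not a called difference.

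The sexes themselves differed in the WT livers. Between WT males and WT females 2 of the 8 genes were called, where 5.74% of tested genes were. *Abcb1a* was lower in males by a difference of -1.77 (adjusted p = 0.000561, limma), with WT females at 7.05 times the male mean. *Abcg2* was higher in males by 1.45 (adjusted p = 0.000193), with WT males at 2.91 times the female mean. *Abcb1b* (0.64, adjusted p = 0.103), *Abca1* (0.51, adjusted p = 0.189) and *Abcc5* (-0.51, adjusted p = 0.143) did not pass although their WT males and females did not overlap, as was so for 33.5% of tested genes. Some marker sums separated the WT sexes as well. As deposited, macrophage markers summed to 92.2 to 102 TPM in WT males and 156 to 312 in WT females, stellate markers to 63.0 to 90.0 and 109 to 171, and hepatocyte markers to 79900 to 93400 and 102000 to 107000. After rescaling the hepatocyte sums overlapped (94400 to 114000 and 110000 to 115000), and the cholangiocyte, endothelial, lymphocyte, neutrophil and erythroid sums overlapped as deposited. Their part in the sex differences was not tested.

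Between KO males and KO females 0 of the 8 passed, where 0.0814% of tested genes did, and 2 had an unadjusted p under 0.05. *Abcb1a* was at -0.55 (adjusted p = 0.859, limma) and *Abcg2* at 0.43 (adjusted p = 0.859), and in both the KO sexes did not overlap, as in 9.50% of tested genes. Mean *Abcb1a* was 1.46 times as high in KO females as in KO males, and mean *Abcg2* 1.37 times as high in KO males. The change of the sex difference with genotype is the interaction given above. Marker sums separated the KO sexes for stellate cells (153 to 288 TPM in males and 305 to 380 in females), lymphocytes (2.22 to 3.27 and 4.69 to 7.85) and, as deposited, erythroid cells (564 to 1240 and 1460 to 3400), and overlapped for the other 5 lists. Their part in these values was not tested.

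**Figure D4:**
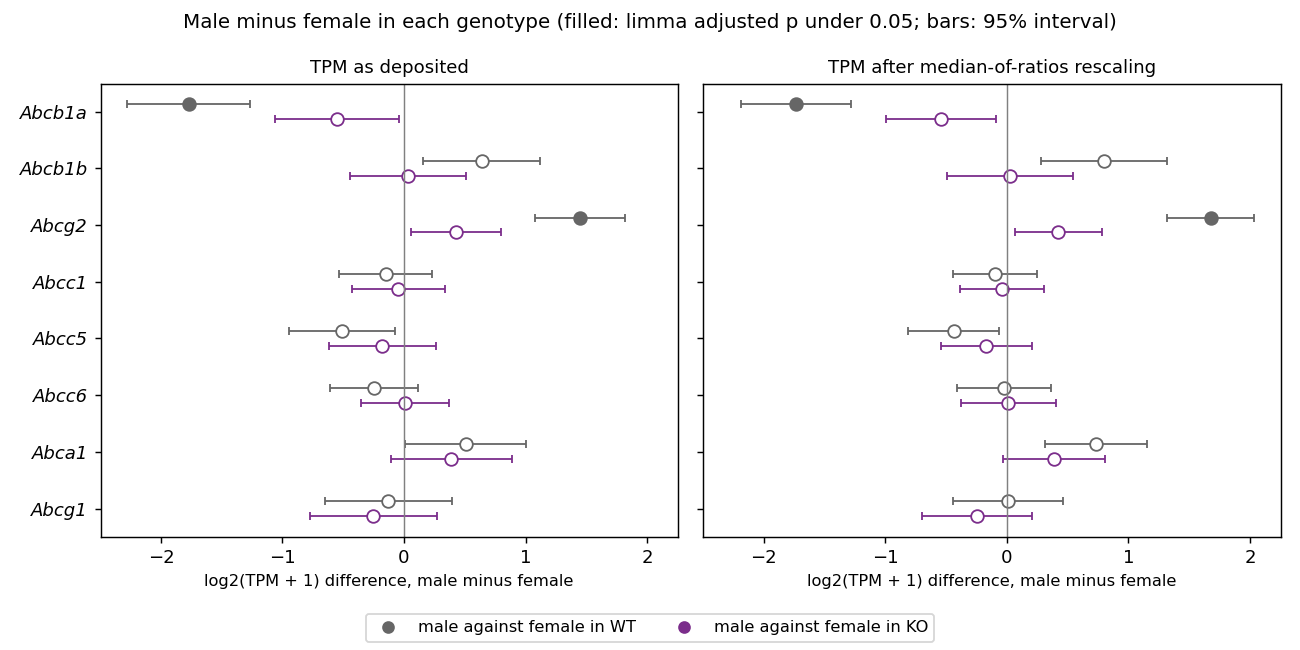
Difference of log2(TPM + 1), male minus female, in WT and KO, with 95% intervals, as deposited (left) and after rescaling (right), with filled points for an adjusted p under 0.05. As deposited *Abcb1a* lies at -1.77 in WT and -0.55 in KO, and *Abcg2* at 1.45 and 0.43.

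Related genes were read in the same KO to WT comparison, against the 50.1% of all tested genes called higher and 4.82% lower as deposited (20.9% and 18.7% after rescaling) and the all-gene medians of 0.35 and -0.04. Of 7 classical bile exporters 4 were higher and 2 lower, with *Abcb4*, the phospholipid flippase, at 1.59, *Abcc3*, a basolateral conjugate exporter, at 1.12 and *Abcg8*, part of the biliary sterol exporter, at -1.21. After rescaling 3 were higher and 3 lower. The list's share of higher genes is near the background as deposited, and its median was 0.60 (0.14 rescaled). Of 27 other ABC genes tested, of 38 in the table, 12 were higher and 2 lower (3 and 5 after rescaling), led by *Abca5* (1.58), *Abca8a* (-1.45) and *Abcg3* (1.14). Their higher share is near that of all genes as deposited and below it rescaled, which was not tested, and their median was 0.33 (-0.07 rescaled).

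Xenobiotic sensors that are known to drive pump genes were higher in 6 of 10 and lower in 0, but in 1 and 4 after rescaling, where 50.1% and 20.9% of all genes were higher, and the list's medians of 0.41 and -0.04 were near those of all genes. The aryl hydrocarbon receptor gene *Ahr* was called on both scales (0.99, and 0.55 rescaled). The oxidant sensor gene *Nfe2l2* (0.94) and *Arnt* (0.78), the partner of *Ahr*, were not called after rescaling (adjusted p = 0.0514 and 0.0549). The sensor gene *Nr1i3* was called lower after rescaling (-1.50) but not as deposited (-1.04, adjusted p = 0.0527, limma). Of 16 enzymes and other targets of these sensors 9 were higher and 3 lower, or 7 and 4 rescaled (medians 0.75 and 0.32, beside 0.35 and -0.04 over all genes). The antioxidant enzyme genes *Nqo1* (2.40), *Srxn1* (2.07) and *Hmox1* (1.93) had the largest differences. *Cyp1a2* (-1.46, or -1.93 rescaled), *Cyp2b10* (-1.22, or -1.59) and *Ugt1a1* (-0.51, or -0.97) were called lower on both scales. Of 4 tested genes of glutathione supply, on which *Abcc1* transport draws, 3 were higher, namely *Gss* (1.43), *Gsr* (0.94) and *Gclm* (0.60), the last not called after rescaling (adjusted p = 0.238).

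Around the cholesterol exporters, 6 of 14 liver X receptor genes and targets were higher and 2 lower, or 3 and 4 rescaled. The higher share is near the 50.1% of all genes as deposited and the 20.9% rescaled, and the medians were 0.35 and -0.11. The lipase gene *Lpl* (4.45) and the fatty acid carrier gene *Cd36* (2.79) had the largest differences, followed by *Abcg8*, which was lower (-1.21, or -1.66 rescaled). Of 9 HDL partners 2 were higher and 3 lower, or 1 and 5 rescaled, with medians of 0.02 and -0.44. The HDL receptor gene *Scarb1* was at 0.89, the HDL protein gene *Apoa2* at -0.85, and *Pltp*, a phospholipid transfer protein gene, at 1.04 but not called after rescaling (adjusted p = 0.0566). Of 11 sterol regulators 5 were higher and 0 lower, or 3 and 1 rescaled, again near the all-gene share of higher genes (medians 0.47 and 0.02), with the cholesterol esterifying enzyme gene *Soat1* at 1.06 and the lysosomal sterol carrier gene *Npc2* at 0.99. *Hmgcs1*, of cholesterol synthesis, was at 1.11 and not called after rescaling (adjusted p = 0.0546).

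Of 7 genes of pyrophosphate and mineral handling, the route that *Abcc6* feeds, 5 were higher and 1 lower, or 3 and 1 rescaled, where 50.1% and 20.9% of all genes were higher. The list's medians were 1.20 and 0.75, beside 0.35 and -0.04 over all genes. Within males they were 1.32 and 0.76, with 6 and 3 genes higher, where 43.3% and 13.9% of all genes were higher and the all-gene medians were 0.44 and -0.04. Within females they were 0.23 and -0.10, with 3 and 2 higher, where 29.1% and 15.2% of all genes were higher and the medians were 0.27 and -0.03. The interaction was called in 1 of the 7 on both scales (0.912% and 0.839% of all genes), so a difference between the sexes is not shown for the list. The gene that was lower was *Ank* (-1.13, or -1.55 rescaled, adjusted p = 3.08e-05 and 2.04e-06, limma), which encodes a pyrophosphate transporter and is named here because it was the only lower one, after its value was seen. The mineral-binding *Spp1* (3.76), which is also a cholangiocyte marker here, and *Alpl* (2.27), the phosphatase that degrades pyrophosphate, were called on both scales. *Nt5e*, which turns AMP into adenosine, was at 1.39 and not called after rescaling (adjusted p = 0.0509).

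Likeness of pattern was taken as the root mean square difference of log2(TPM + 1) over the 12 livers after centring each gene, so a smaller value is a closer match. Nearest to *Abcb1a*, whose own spread on this measure is 1.20, were *Crtap* (0.295) and *Mgst3* (0.319). For *Abcc5* (own spread 0.668) they were *Cd84* (0.125) and *Maged2* (0.128), and for *Abcg1* (0.691) they were *Sash3* (0.128) and *Aldh18a1* (0.142). *Abcg2* (0.566) lay nearest to *Scp2* (0.188) and *C9* (0.207). *Abcc1* (0.406) lay nearest to *Ppfia4* (0.0905) and *Rps6ka3* (0.104), *Abcc6* (0.220) to *Mthfd1* (0.120) and *Ecsit* (0.122), and *Abca1* (0.343) to *Xiap* (0.101) and *Vps13c* (0.145). For *Abcb1b*, with an own spread of 0.326, the nearest were *Snx29* (0.222) and *Shld2* (0.227). After rescaling these ranked 11 and 201 in likeness to *Abcb1b*, *Rps6ka3* ranked 29 for *Abcc1* and *Maged2* 9 for *Abcc5*, and the other genes named here ranked 1 to 3. The livers share genotype and sex groups, so such likeness describes these 12 libraries.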

How the data were processed

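Whole-liver RNA of 12 mice was sequenced, and the authors deposited 1 table with a TPM column per mouse, per the file headers. The submitters' processing notes name GRCm38 and edgeR. The aligner, counter, strand use and treatment of reads that fit several genes are not given in the sources used here. The table's own fold changes, log2 fold changes and FDR values are the authors', and how they were made is not given in the sources used here. Groups came from sample titles, and replicate numbers follow accession order.

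TPM were tested as log2(TPM + 1) with limma 3.58.1 (trend, R 4.3.3), filtered at a mean of 0.5 TPM, with sex as a covariate or as 4 group means. TPM keep no direct depth, but 15157 of 15163 genes above 0 in at least 6 samples gave whole reads from value steps (tolerance 0.02). These reads served for depth only. Median-of-ratios rescaling, other pseudocounts (0.1, 0.5), filters (none, 2 TPM), a rescaling without the 20 most abundant genes, no trend, a covariate for low animal numbers and leaving out each library were the alternatives, and rescaling with each library left out was added after seeing the data. The limma fit was tested on simulated data. The 8 genes and all lists were chosen with earlier results of these data known. Named genes were the 8, *Yap1*, the 3 called genes with the largest difference per related list, the 2 nearest in pattern per transporter, and markers. *Ank*, *Nr1i3*, *Cyp1a2*, *Cyp2b10* and *Ugt1a1* were named outside this rule, after their values were seen. Motifs were searched on both strands. Promoter windows of *Abcc1*, *Abcc6* and *Abcg1* were not used here.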

Additional observations from a re-analysis of the deposited data

Results flagged for a closer look

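The genotype difference of *Abcg2* differed between the sexes after median-of-ratios rescaling, by a test of the difference itself. It was -1.25 on the log2(TPM + 1) scale, male minus female (adjusted p = 0.023, limma), with KO lower than WT in males (-0.88) and at 0.38 in females. As deposited the same term was -1.02 (adjusted p = 0.0901). Leaving out 1 library at a time after rescaling gave -1.40 to -1.14, and in 7 of 12 such fits the adjusted p rose above 0.05 (0.00774 to 0.0765 over all 12). Those fits were without WT male replicate 1 or 2, WT female replicate 1, KO male replicate 1 or 2, and KO female replicate 1 or 2.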

How the results depend on the processing

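The number of the 8 genes called in each comparison stayed within 1.5 times its value under every alternative run, except that the interaction count went from 0 to 1 under median-of-ratios rescaling and was 0 to 1 when rescaled libraries were left out in turn. *Abca1* in KO against WT, not called at 0.07, was called lower at -0.39 (adjusted p = 0.0438) under rescaling, which moved the median gene from 0.35 to -0.04, so no called direction was turned. With 1 library left out after rescaling it was called at -0.45 (without WT female replicate 1), -0.44 (without KO female replicate 1), -0.41 (without KO female replicate 2) and -0.47 (without KO male replicate 3), and in males at -0.78 without KO male replicate 3. As deposited, leaving out 1 library gave -0.07 to 0.16. *Abcc6* was called lower under rescaling (-0.69), when rescaled without the 20 most abundant genes (-0.31, adjusted p = 0.0455) and without WT male replicate 2 (-0.30). After rescaling with 1 library left out, *Abcc1* stayed called in 8 of 12 fits within males and 8 of 12 within females, and *Abcg1* within males in 10 of 12, and the rescaled *Abcc6* call within males was lost in 3 of 12 (highest adjusted p = 0.0554). Over all values and settings 1423 kept their call, 60 newly passed, 23 no longer passed and 6, the *Abca1* values above, took the other sign and passed. The cause of these changes was not tested. Over all genes, calls in KO against WT were 6153 higher and 592 lower as deposited and 2568 higher and 2293 lower rescaled. *Abcb1b* fell below the filter without WT male replicate 2, and it and *Abcc1* at 2 TPM, so those fits give no value for them. Low counts limit *Abcb1b*, *Abcc1* and WT male *Abcb1a*. No paired analysis was possible because the replicate numbers follow the order of deposition and pair no samples.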
